A study of Mus musculus with 6 samples.

Results

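The genes of the AP-1 transcription factors were examined for occupancy by KLF3, a zinc finger repressor that binds CACCC boxes and GC-rich promoters. The 10 genes were Fos, Fosb, Fosl1 and Fosl2 of the Fos family, Jun, Junb and Jund of the Jun family, and Atf3, Batf and Maff of related basic leucine zipper families. Their peak regions were taken as the regions of the deposited table of all peaks whose nearest annotated gene was 1 of the 10. This gave 26 of 22188 regions, at 7 of the 10 genes: 6 at Fos, 5 at Jun, 4 each at Fosl2 and Atf3, 3 each at Fosl1 and Junb, and 1 at Fosb. Jund, Batf and Maff had no region in the table. The nearest gene is an assignment by distance, and no binding at a region shows which gene it acts on.

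AP-1 is a dimer of basic leucine zipper proteins that joins a Jun family member with a Fos family, ATF or other partner. It binds the heptamer TGACTCA, which reads TGAGTCA on the other strand. Fos, Jun, Fosb, Junb and Atf3 are immediate early genes, which fibroblasts switch on within minutes of serum, growth factor or stress signals and then shut off, whereas JUND is made more steadily and tends to restrain growth. FOSL1 and FOSL2 lack the strong activation domain of FOS, BATF is best known from lymphocytes, and MAFF is a small Maf protein without an activation domain.

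Klf3-/- murine embryonic fibroblasts (MEFs) of strain C57BL/6 were rescued with V5-tagged wild-type KLF3, ΔDL or DBD, and chromatin was immunoprecipitated with an anti-V5 antibody and sequenced. In ΔDL, a 2-amino-acid substitution in the N-terminal domain removes the contact with the corepressor CtBP, and DBD keeps the zinc fingers and a putative nuclear localization signal only. All 3 lines lack the endogenous protein and are clones that carry a retroviral transgene and were selected in puromycin, so occupancy was that of an ectopic protein, and a difference between constructs cannot be told apart from one between clones. The assay gives no RNA level, so neither the expression of the AP-1 genes nor markers of the cell type could be checked here. Each construct had 2 replicates with a paired input each. Nothing in the sources used here says whether the replicates were separate cultures, so their spread may be technical.

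A peak height was the log2 of the tags in 400 bp around a region's centre, normalized to 100 M tags, with both replicates of a construct combined. Each region therefore had 1 height per construct and no replicate error, and no test of a difference in height was made. With 2 replicates per construct, an exact two-sided permutation test could not go below p = 0.333. KLF3 heights rested on 23.3 M tags, those of ΔDL on 11.8 M and those of DBD on 16 M, so that 1 tag was worth 4.29, 8.45 and 6.23 normalized tags. Uniform coverage of the genome would give 14.7 normalized tags in 400 bp, a log2 height of 3.88. The 95% intervals given beside differences in height are exact intervals on the ratio of the tags behind both heights. They cover counting error only, and reads from PCR are not independent molecules.

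The extremes of the pattern described in the rest of the text are found in 5 regions, and the central 200 bp of each is shown here from mm9 in the direction of its gene, 5′ to 3′. Capitals mark matches to the core of the KLF3 consensus (ACACCC with its variant ACGCCC, and CCACCC with its variant CCGCCC) and to the AP-1 heptamer, on either strand. The first was the highest KLF3 region in an AP-1 gene promoter, at chr19:5447687-5447886 on the plus strand, around the start of Fosl1. The second, at chr1:193048225-193048424 and shown on the minus strand, was the highest KLF3 region outside promoters and lay 41113 bp upstream of Atf3. It was also the one with the largest excess of ΔDL among regions with a height of at least 8. The third had the largest deficit of ΔDL among those and lay in the Jun promoter at chr4:94719789-94719988 on the minus strand. The last 2 were chosen after their values were seen, as the region with the highest DBD height, 51337 bp upstream of Atf3 at chr1:193058449-193058648 on the minus strand, and the one with the largest excess of ΔDL at any height, 17348 bp downstream of the Fos start at chr12:86832099-86832298 on the plus strand.
Fosl1 +89: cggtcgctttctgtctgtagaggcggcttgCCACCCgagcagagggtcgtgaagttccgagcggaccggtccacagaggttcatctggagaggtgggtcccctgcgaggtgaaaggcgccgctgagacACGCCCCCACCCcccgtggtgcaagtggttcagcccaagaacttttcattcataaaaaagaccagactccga
Atf3 -41113: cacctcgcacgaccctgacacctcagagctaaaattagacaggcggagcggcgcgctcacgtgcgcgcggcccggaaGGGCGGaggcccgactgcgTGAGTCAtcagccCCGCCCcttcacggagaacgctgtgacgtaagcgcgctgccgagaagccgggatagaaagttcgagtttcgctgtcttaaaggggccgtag
Jun -976: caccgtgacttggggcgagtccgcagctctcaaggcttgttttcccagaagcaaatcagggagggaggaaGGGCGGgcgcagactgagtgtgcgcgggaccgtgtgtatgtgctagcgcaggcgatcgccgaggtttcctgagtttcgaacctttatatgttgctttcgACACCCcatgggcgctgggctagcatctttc
Atf3 -51337: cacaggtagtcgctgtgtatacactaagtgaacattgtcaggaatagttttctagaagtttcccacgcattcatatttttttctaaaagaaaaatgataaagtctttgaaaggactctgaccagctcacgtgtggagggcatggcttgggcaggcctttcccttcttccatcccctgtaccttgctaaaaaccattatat
Fos +17348: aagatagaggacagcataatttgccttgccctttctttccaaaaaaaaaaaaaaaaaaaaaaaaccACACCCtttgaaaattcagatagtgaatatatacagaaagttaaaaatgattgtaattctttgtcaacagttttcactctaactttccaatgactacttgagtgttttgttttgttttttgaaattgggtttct
The Fosl1 window held 3 cores, a pair of which lay side by side, at 60% G+C. In the upstream Atf3 window 2 cores flanked a TGAGTCA heptamer, at 64% G+C. The Jun promoter window held 2 cores at 58.5% G+C. The Atf3 -51337 window held neither sequence and had a G+C content of 41.5%, and the Fos +17348 window held 1 core in a sequence of 28.5% G+C.

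KLF3 occupied all 7 genes that had a region. In the table, 19 of the 26 regions were listed for KLF3 alone, 2 for KLF3 and ΔDL, 2 for all 3 constructs and 3 for ΔDL alone. The listing names the construct whose merged peak, called in both of its replicates, gave the region, and overlap of a region with replicate peaks was counted separately here. The 2 did not always match: Fosl1 +89, listed for KLF3 alone, overlapped peaks of both ΔDL replicates, as did 156 of the 9418 regions so listed. Promoters, which the authors set from 1 kb upstream to 100 bp downstream of a transcription start site (TSS), held 6 regions, at Fos, Fosl1 (2 of them), Fosl2, Jun and Atf3. Of the others, 16 were intergenic, 3 were in introns and 1 lay at the 3′ end of Junb. In distance, 11 regions were within 2 kb of a TSS and 13 were more than 10 kb away. The regions at -120 and +89 bp of Fosl1 overlapped and shared the same replicate peaks, and those at -1399 and -1009 bp of Junb overlapped by their edges but had separate replicate peaks.

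**Figure D1:**
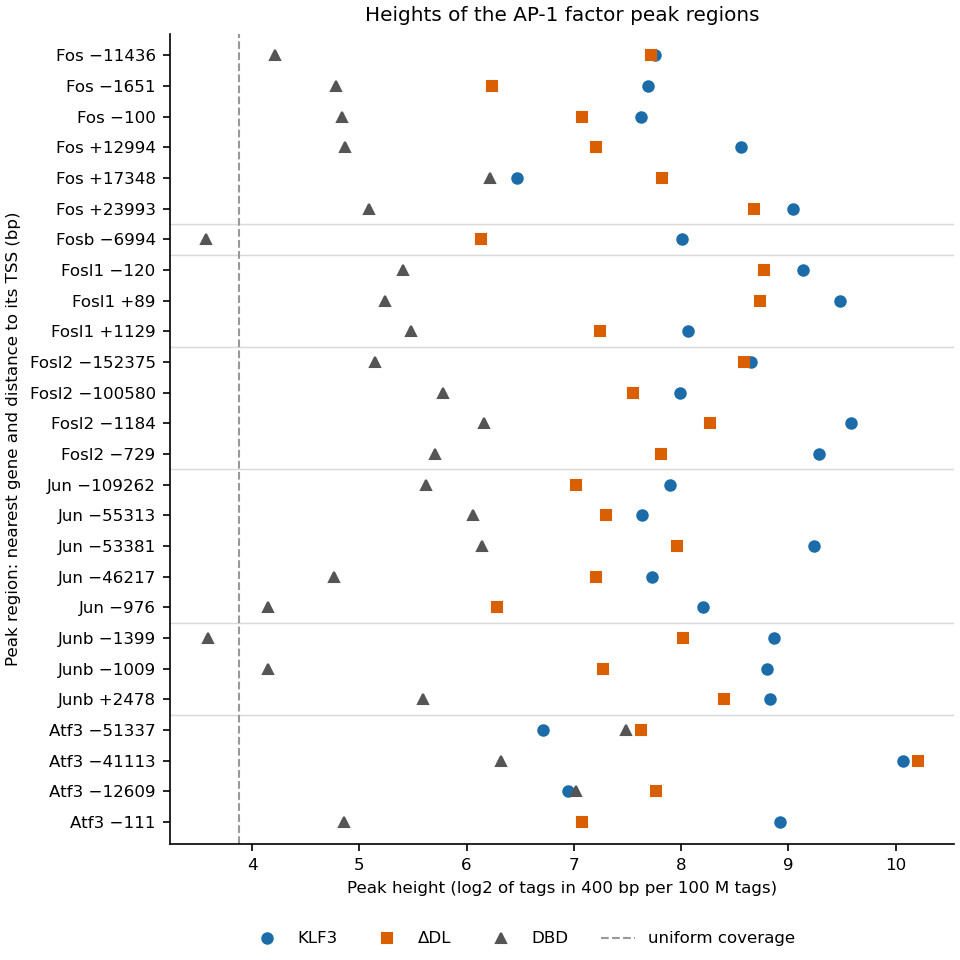
Peak heights (log2 of tags in 400 bp per 100 M tags) of the 26 regions for KLF3 (circles), ΔDL (squares) and DBD (triangles), with the height at uniform coverage as a dashed line at 3.88. KLF3 was the highest of the 3 in 22 regions, and DBD was within 2-fold of KLF3 only at Fos +17348, Atf3 -51337 and Atf3 -12609.

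Fos, whose protein is the founding partner of JUN, had 6 regions on chromosome 12, on both sides of the gene, with Tmed10 and Jdp2 as the nearest other coding genes. At its promoter, centred 100 bp upstream of the TSS (chr12:86814551-86814951), KLF3 had a log2 height of 7.63, ΔDL of 7.08 and DBD of 4.84. The replicate lists gave peak scores, in tags per 100 M tags of that replicate, of 147 and 122 for KLF3, and no peak was called for either mutant. KLF3 heights at 4 of the other Fos regions were above that of the promoter. The highest, 23993 bp downstream of the TSS (chr12:86838644-86839044), had heights of 9.04, 8.68 and 5.09 in the same order of constructs. The region at +12994 bp (chr12:86827645-86828045) had 8.56, 7.21 and 4.87, and both it and the region at -1651 bp (chr12:86813000-86813400), with 7.69, 6.24 and 4.78, were annotated as CpG islands. ΔDL minus KLF3 was -1.35 (interval -2.22 to -0.62) in the first of these and -1.45 (-2.87 to -0.48) in the second, on the log2 scale. By contrast, ΔDL and KLF3 were level at -11436 bp (chr12:86803215-86803615), with heights of 7.72 and 7.76, and this was the one KLF3-listed Fos region called in both ΔDL replicates.

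The region at +17348 bp of Fos (chr12:86831999-86832399) stood apart from the other 5. KLF3 had a log2 height of 6.47, ΔDL of 7.82 and DBD of 6.22, so that ΔDL was higher than KLF3 by 1.35 (interval 0.46 to 2.27), and DBD differed from KLF3 by -0.25 (-1.53 to 0.81). It was listed for ΔDL alone and had the largest ΔDL excess of the 26 regions. Both the listing and a choice by that excess favour a high ΔDL height, and the interval does not allow for this. The peak scores were 183 in KLF3 replicate 1, 453 and 137 in the ΔDL replicates and 102 in DBD replicate 1, and none was called in the other replicate of KLF3 or DBD. The single KLF3 score lay within the spread of the ΔDL scores, which had a mean of 295 ± 223 (SD, n = 2). The region had the lowest G+C content of the 26 (36.5%) and a mean PhastCons conservation score of 0.06.

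Fosb, the other immediate early member of the family, had a single region, 6994 bp upstream of its TSS (chr7:19902188-19902588). The log2 height was 8.01 in KLF3, 6.13 in ΔDL and 3.57 in DBD. KLF3 was called in both replicates with scores of 275 and 144, and neither mutant was called in any. ΔDL minus KLF3 was -1.88 (interval -3.18 to -0.83), on 8 tags against 59. The DBD height rested on 1 tag and was below that of uniform coverage. A TGACTCA or TGAGTCA heptamer lay 36 bp from the region's centre and no consensus core lay within 50 bp of it.

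Fosl1 had its occupancy at the promoter and in the first intron. The region at +89 bp (chr19:5447587-5447987) had log2 heights of 9.48, 8.74 and 5.24 for KLF3, ΔDL and DBD, and the overlapping one at -120 bp (chr19:5447378-5447778) had 9.14, 8.77 and 5.41. The KLF3 replicates gave nearly the same score at their peak there, 440 and 415, with a mean of 428 ± 17.7 (SD, n = 2), while the ΔDL replicates gave 453 and 195. The ΔDL peaks started 208 to 220 bp upstream of the KLF3 peaks of the same replicate number, and the 2 overlapping regions were accordingly listed for different constructs. ΔDL minus KLF3 was -0.74 (interval -1.24 to -0.29) at +89 bp and -0.37 (-0.88 to 0.09) at -120 bp, and both constructs were called in both replicates. The intronic region at +1129 bp (chr19:5448627-5449027), a CpG island in intron 1 of 3, had 8.06, 7.24 and 5.48 and was called for KLF3 alone. It held an AP-1 heptamer and no consensus core in the whole 400 bp.

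Fosl2 had a pair of neighbouring regions at its promoter and a pair far upstream. The promoter region at -729 bp (chr5:32437916-32438316) had log2 heights of 9.29, 7.81 and 5.71, and the region at -1184 bp (chr5:32437461-32437861), a CpG island, had 9.58, 8.27 and 6.16. ΔDL was below KLF3 at both, with differences of -1.48 (interval -2.16 to -0.89) and -1.31 (-1.89 to -0.80). Although it had the second highest KLF3 height among the 26, the -1184 bp region was listed for ΔDL alone. A KLF3 peak overlapped it in replicate 2 only (score 376), whereas both ΔDL replicates did (283 and 186). The distal pair lay 152375 bp and 100580 bp upstream (chr5:32286270-32286670 and chr5:32338065-32338465), in introns 7 and 10 of Babam2, annotated under its older symbol Bre, which encodes a scaffold protein of deubiquitinating enzyme complexes. Their log2 heights were 8.65, 8.59 and 5.15 for the first and 7.99, 7.55 and 5.78 for the second. In these introns the difference between ΔDL and KLF3 was -0.06 (interval -0.62 to 0.46) and -0.44 (-1.22 to 0.28). They were the most conserved of the 26 regions, with mean PhastCons scores of 0.81 and 0.91 against a median of 0.14 over the 14115 KLF3 peaks, and the second held 3 AP-1 heptamers within 400 bp.

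Jun, the central partner of AP-1, had 5 regions on chromosome 4, of which 1 was in the promoter and 4 lay from 46217 to 109262 bp upstream. All 5 fell within BC042782, which the GENCODE annotation of mm9 gives as a processed transcript on the opposite strand. At the promoter, centred 976 bp upstream of the TSS (chr4:94719689-94720089), KLF3 had a log2 height of 8.20, ΔDL of 6.28 and DBD of 4.15. KLF3 scored 165 and 155 in its replicates (mean 160 ± 7.07, SD, n = 2), and no mutant replicate was called. ΔDL minus KLF3 was -1.92 (interval -3.13 to -0.93), the largest deficit of the 26 regions, on 9 tags against 68. The highest Jun region was at -53381 bp (chr4:94772094-94772494), with heights of 9.24, 7.96 and 6.14 and KLF3 scores of 641 and 442, and there ΔDL minus KLF3 was -1.28 (-1.92 to -0.71). The remaining Jun regions, at -46217 bp (chr4:94764930-94765330), -55313 bp (chr4:94774026-94774426) and -109262 bp (chr4:94827975-94828375), had KLF3 heights of 7.73, 7.64 and 7.90. Their ΔDL heights were 7.21, 7.30 and 7.02, and their DBD heights 4.76, 6.06 and 5.62. In the first 2 of these the interval of the ΔDL difference covered 0, and in the third it ended at -0.05. An AP-1 heptamer lay within 50 bp of the centre at -53381 and -46217 bp, together with a consensus core at both.

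Junb had 3 regions close to the gene on chromosome 8, none of them in the authors' promoter class, although the region at -1009 bp was centred 9 bp outside it. It (chr8:87503456-87503856) had log2 heights of 8.80, 7.27 and 4.15, and its neighbour at -1399 bp (chr8:87503846-87504246) had 8.87, 8.02 and 3.59. The region at the 3′ end, 2478 bp downstream of the TSS (chr8:87499969-87500369), had 8.83, 8.40 and 5.59. KLF3 was thus at nearly one level across the gene, and its replicate scores ranged from 238 to 348. ΔDL was not, since ΔDL minus KLF3 was -1.53 (interval -2.35 to -0.81) at -1009 bp, -0.85 (-1.50 to -0.27) at -1399 bp and -0.43 (-1.02 to 0.09) at the 3′ end. DBD at -1399 bp rested on 1 tag, and its difference from KLF3 was -5.28 (interval -11.53 to -3.71). The 3′ region lies 1436 bp from Prdx2, which encodes a peroxiredoxin.

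Jund, the third Jun gene, had peaks in 4 of the 6 replicate lists but no region in the table. All lay in or just beyond its single exon. The highest KLF3 peaks scored 678 in replicate 1 (chr8:73222542-73222664) and 575 in replicate 2 (chr8:73222298-73222440), above the scores of all 26 regions in the same replicate except Atf3 -41113. Their intervals were 101 bp apart, and no peak of the first list shared a base with one of the second. ΔDL scored 396 and 176 at most, with a gap of 225 bp, and DBD was not called. Since a listed region needed overlapping peaks in both replicates, and the peaks were only 122 to 142 bp wide, the gene entered the table for no construct.

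Atf3, whose stress-induced protein represses as a homodimer and activates in some dimers with JUN, had 4 regions on chromosome 1. Its promoter, centred 111 bp upstream of the TSS (chr1:193007123-193007523), had log2 heights of 8.92 in KLF3, 7.08 in ΔDL and 4.86 in DBD. KLF3 alone was called there, with scores of 183 and 276, and 9 consensus cores lay within 400 bp, the most of any of the 26 regions. ΔDL minus KLF3 was -1.84 (interval -2.81 to -1.14), on 15 tags against 112.

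At -41113 bp (chr1:193048125-193048525) Atf3 had the highest region of all 26, with log2 heights of 10.07 in KLF3, 10.21 in ΔDL and 6.32 in DBD. In linear units these were 1075, 1184 and 79.9 normalized tags. KLF3 scored 1338 and 890 (mean 1114 ± 317, SD, n = 2) and ΔDL 1190 and 958 (mean 1074 ± 164), so the constructs differed by less than the spread between replicates. ΔDL minus KLF3 was 0.14 (interval -0.17 to 0.45) and DBD minus KLF3 was -3.75 (-4.81 to -3.01). RefSeq has no nearer start than that of Atf3, but in GENCODE the centre of the region lies 28 bp upstream of the 5′ end of D730003I15Rik, a lincRNA on the plus strand (chr1:193048353-193049565), and the region is a CpG island.

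The remaining Atf3 regions, at -12609 bp (chr1:193019621-193020021) and -51337 bp (chr1:193058349-193058749), were the ones listed for all 3 constructs and the only AP-1 factor regions called in both DBD replicates. The first had log2 heights of 6.95, 7.77 and 7.02 for KLF3, ΔDL and DBD, and the second 6.71, 7.63 and 7.49. KLF3 had the lowest deposited height of the 3 at both, but the order depended on counting error and scaling. ΔDL exceeded KLF3 by 0.82 (interval -0.02 to 1.65) and 0.92 (0.03 to 1.80), and DBD by 0.07 (-0.85 to 0.93) and 0.78 (-0.08 to 1.61). With medians made equal in the regions listed for all 3 constructs, ΔDL minus KLF3 was -0.24 and -0.14. DBD minus KLF3 was then -0.35 and 0.36. The DBD scores were 141 and 119 at the first region (mean 130 ± 15.6, SD, n = 2) and 154 and 95.5 at the second (125 ± 41.4), against KLF3 means of 144 ± 55.2 and 141 ± 59.0. The first overlapped a B3A SINE repeat, and their conservation scores were 0.11 and 0.02, among the lowest of the 26.

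Batf had no peak in any of the 6 replicate lists. Maff had 4, all in KLF3 replicate 2: at the promoter (score 133), in the first intron (116) and in the last exon (77.4 and 105). In that replicate the scores at the 26 regions ranged from 94 to 890. The lists hold called peaks alone, so signal below the calling threshold at Batf and Maff was not measured here.

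**Figure D2:**
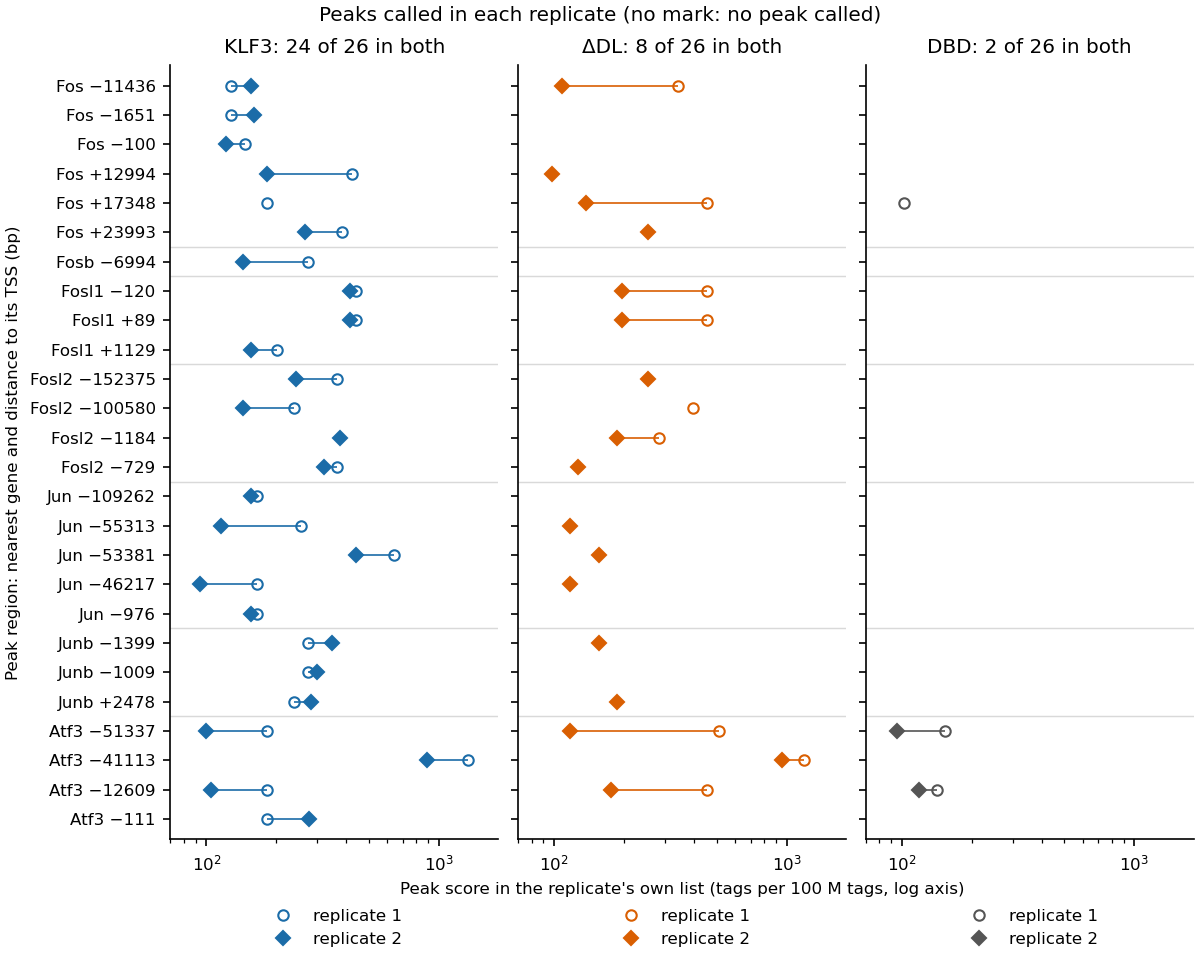
Peak score of the best overlapping peak in each replicate's own list (tags per 100 M tags of that replicate, log axis) for KLF3, ΔDL and DBD, with open circles for replicate 1 and filled diamonds for replicate 2. Both replicates were called in 24 regions for KLF3, 8 for ΔDL and 2 for DBD, and the scores of ΔDL replicate 1 lay to the right of those of replicate 2 wherever both were called.

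Replicate support followed the construct. KLF3 peaks were called in both replicates at 24 of the 26 regions, against 64.1% of all regions in the table. ΔDL peaks were called in both at 8, against 55.9%, and DBD peaks at 2, against 22.4%. These percentages describe how the table was assembled, since a region enters it through such calls. For ΔDL the number of tags behind the replicates was unequal: the scores of replicate 1 rested on 1.77 M tags and those of replicate 2 on 10.2 M. The combined ΔDL heights, on 11.8 M tags, therefore came mostly from replicate 2. Of the 26 regions, 9 were called in ΔDL replicate 2 and not in replicate 1, compared with 26.9% of all regions, 1 was called in replicate 1 alone and 8 were called in neither. The shares of all regions for the last 2 counts were not computed. By replicate, ΔDL was called at 34.6% and 65.4% of the 26 regions, against 57.4% and 82.8% of all. Among all regions listed for KLF3 alone, as were 19 of the 26, these shares were 3.29% and 62%. A call of 1 peak in ΔDL replicate 1 needed as few as 4 tags, each worth 56.6 in the score, and its scores exceeded those of replicate 2 at each of the 8 regions where both were called. KLF3 replicate 1, on 5.46 M tags, gave the higher score at most but not all regions.

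Ranked by each gene's highest region, the order of the log2 KLF3 heights was Atf3 (10.07), Fosl2 (9.58), Fosl1 (9.48), Jun (9.24), Fos (9.04), Junb (8.87) and Fosb (8.01). Atf3 stood above its neighbour and Fosb below it by more than counting error. No neighbours between Fosl2 and Junb in that order differed by more than counting error. The highest region was picked from unequal numbers of regions, from 6 at Fos to 1 at Fosb. A gene with more regions has more chances of a high one, and the intervals do not allow for this. For ΔDL, Atf3 was again first at 10.21 and Fosb last at 6.13, and the 5 genes between them lay from 7.96 to 8.77. For DBD, Atf3 led at 7.49 through its -51337 bp region and not the one at -41113 bp, and the other 6 genes lay between 3.57 and 6.22.

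Over all 26 regions, the ΔDL height was 2-fold or more below that of KLF3 in 9, at least 2-fold higher in 1 (Fos +17348) and within 2-fold in the others. The 9 were Fos -1651 and +12994, Fosb -6994, Fosl2 -1184 and -729, Jun -53381 and -976, Junb -1009 and Atf3 -111. Among all regions of the table, 14.9% were at least 2-fold lower and 28.9% at least 2-fold higher. The median difference was -0.65 over the AP-1 factor regions and 0.42 over all. By kind of region, of the 4452 promoter regions 33.7% were at least 2-fold lower, against 3 of 6 AP-1 gene promoter regions, and of the 17736 others 10.2%, against 6 of 20. Among regions listed for KLF3 alone the share was 33.8%, against 8 of 19. The interval of the difference lay below 0 in 13 regions, above 0 in 2 (Fos +17348 and Atf3 -51337) and covered 0 in 11. Intervals were not computed over all regions, so these counts have no share to be read against. Of the 26 regions, 19 were listed for KLF3 alone, a listing that favours a difference below 0.

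These ΔDL counts depended on how the heights were scaled. In the 2334 regions listed for all 3 constructs, the median height was 7.05 for KLF3 and 8.11 for ΔDL. When ΔDL was shifted by -1.06 so that those medians were equal, the median over all regions went from 0.42 to -0.64, and 22 of the 26 AP-1 factor regions, against 43% of all, were at least 2-fold lower than KLF3. Under that scaling Fos +17348 was the only region where ΔDL stayed higher, by 0.29, and the 3 Atf3 regions with an excess of ΔDL went to -0.14, -0.92 and -0.24. The order of the regions by their difference is the same under both scalings, since the shift is one number.

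**Figure D3:**
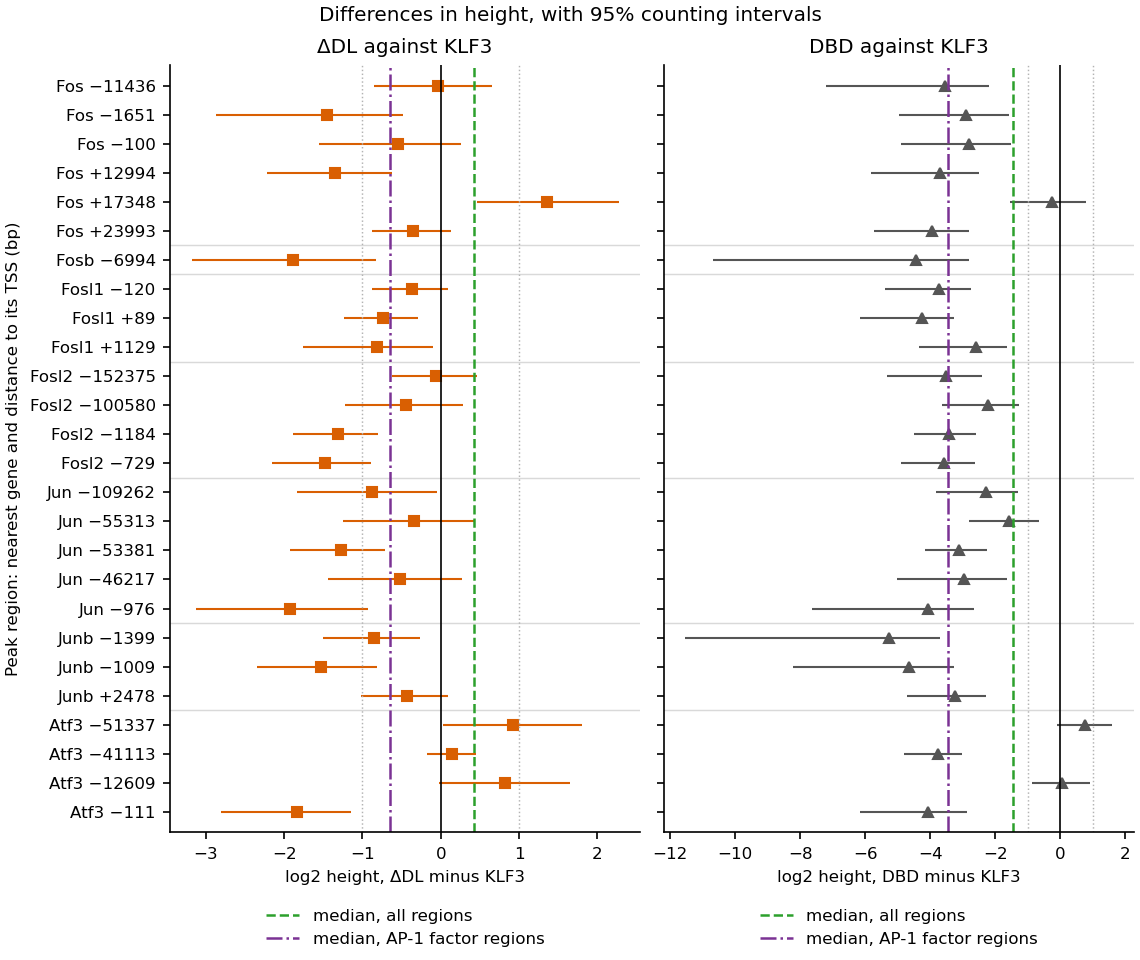
Difference in log2 height from KLF3 for ΔDL (left) and DBD (right) at each region, with bars for the 95% counting interval, dotted lines at 2-fold, and the medians over all regions (dashed) and over the AP-1 factor regions (dash-dotted). The medians were -0.65 against 0.42 for ΔDL and -3.46 against -1.45 for DBD.

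DBD was at least 2-fold lower than KLF3 in 23 of the 26 regions and at least 2-fold higher in 0, against 52.6% and 3.27% of all regions. Among all regions listed for KLF3 alone the share at least 2-fold lower was 97.5%, against 19 of 19 here. Among all promoter regions it was 97.3%, against 6 of 6. The 3 regions within 2-fold were Fos +17348, Atf3 -51337 and Atf3 -12609, and in each the interval of the difference covered 0. In the other 23 it lay below 0, a count that was not made over all regions. The median difference was -3.46 over the AP-1 factor regions and -1.45 over all, and in the 6 promoter regions it was -3.89, against -2.99 in all promoter regions. DBD tags in the 26 regions numbered from 1 to 28, so the low end of many intervals was wide. No peak was called for DBD at the promoters of Fos, Fosl1, Fosl2, Jun or Atf3, or at any Junb or Fosb region. Such calls were rare in the table as a whole. DBD replicates 1 and 2 were called at 2.74% and 3.89% of all promoter regions. Among all regions listed for KLF3 alone, as were those of Junb and Fosb, the shares were 0.913% and 1.74%.

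Base composition moved with these differences. The split at 50% G+C in the central 400 bp was chosen after the values were seen. In the 7 AP-1 factor regions under 50% the median difference between ΔDL and KLF3 was -0.04, with a range from -0.44 to 1.35, and in the 19 others it was -0.88, with a range from -1.92 to 0.14. The same split of all regions gave medians of 0.92 in 14242 regions under 50% and -0.67 in 7946 others. For DBD the medians over the AP-1 factor regions were -1.58 and -3.69, and over all regions 0.24 and -2.94. The median G+C content was 58.1% over the 26 regions and 45% over all, so the AP-1 factor regions lay mostly on the G+C-rich side. The listing moved with base composition as well. Regions listed for KLF3 alone, a listing that favours a difference below 0, were 3 of the 7 and 16 of the 19. Over all regions their shares were 23.7% under 50% G+C and 76.1% in the others. The parts of base composition and of the listing in the differences were not tested.

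**Figure D4:**
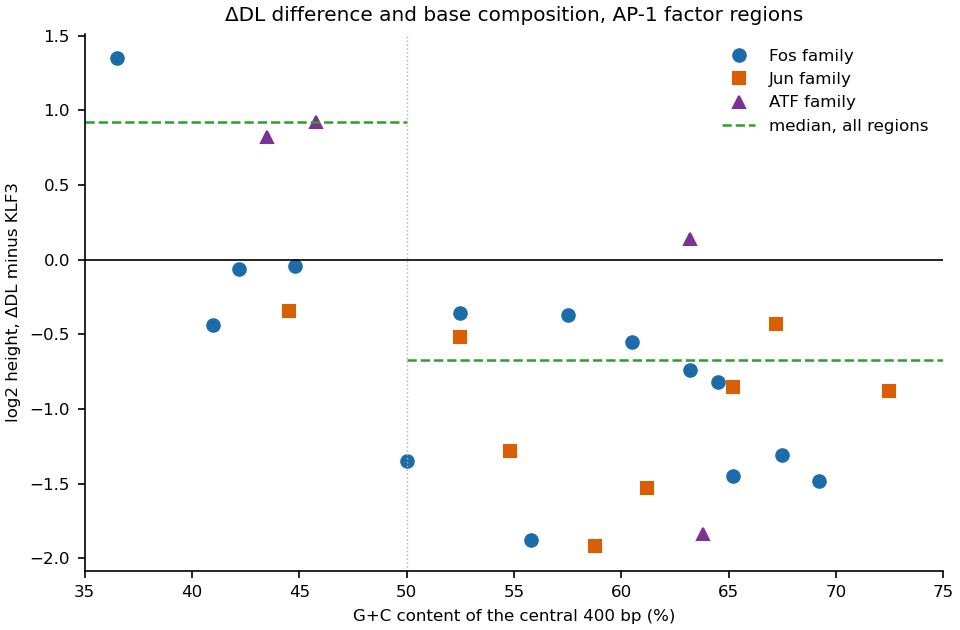
Difference in log2 height between ΔDL and KLF3 against the G+C content of the central 400 bp for the regions of the Fos family (circles), Jun family (squares) and Atf3 (triangles), with dashed lines for the median over all regions on either side of 50%. All 19 regions at 50% or more lay at or below 0.14, and the 3 highest values belonged to regions under 46%.

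The consensus core (ACACCC with its variant ACGCCC, and CCACCC with its variant CCGCCC, on either strand) was found in the central 100 bp of 19 of the 26 regions, against 40.2% of all regions. In promoter regions it was found in 5 of 6, against 83.1%, and elsewhere in 14 of 20, against 29.4%. Among all regions listed for KLF3 alone, as were 19 of the 26, the share was 68.2%. The 7 regions without one in that window were Fos -11436 and +12994, Fosb -6994, Fosl1 +1129, Fosl2 -729, Jun -55313 and Atf3 -51337. Within 400 bp, 3 regions still held none, namely Fosl1 +1129, Jun -55313 and Atf3 -51337. The median G+C content of all promoter regions was 63.5% and that of all others 42.2%, and the part of base composition in these shares was not tested.

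An AP-1 heptamer, TGACTCA or TGAGTCA on either strand, was found in the central 200 bp of 6 of the 26 regions, against 12.3% of all regions. These were Fosb -6994, Fosl1 +1129, Fosl2 -100580, Jun -53381, Jun -46217 and Atf3 -41113. In that window none was in a promoter region, where 3.28% of all promoter regions held it, and the 6 were among 20 other regions, where 14.5% of all did. Within 400 bp, 8 of the 26 regions held a heptamer, against 16.5% of all, and the 2 added were promoter regions, Fosl1 +89 and Fosl2 -729, each with a heptamer 114 bp from its centre, so that 2 of 6 promoter regions held it in that window, against 4.78% of all promoter regions. Among all regions listed for KLF3 alone, as were 19 of the 26, 20.2% held a heptamer in the 200 bp window and 25.3% within 400 bp. In Atf3 -41113 the heptamer was at the very centre of the region, 12 bp from one consensus core and 20 bp from another. The octamer TGACGTCA, read by ATF and CREB factors, was found in 0 of the 26, compared with 0.834% of all regions. The related octamer TGACATCA, known from the Jun promoter, was found in 2, Fos -1651 and Fosb -6994, compared with 1.33%.

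**Figure D5:**
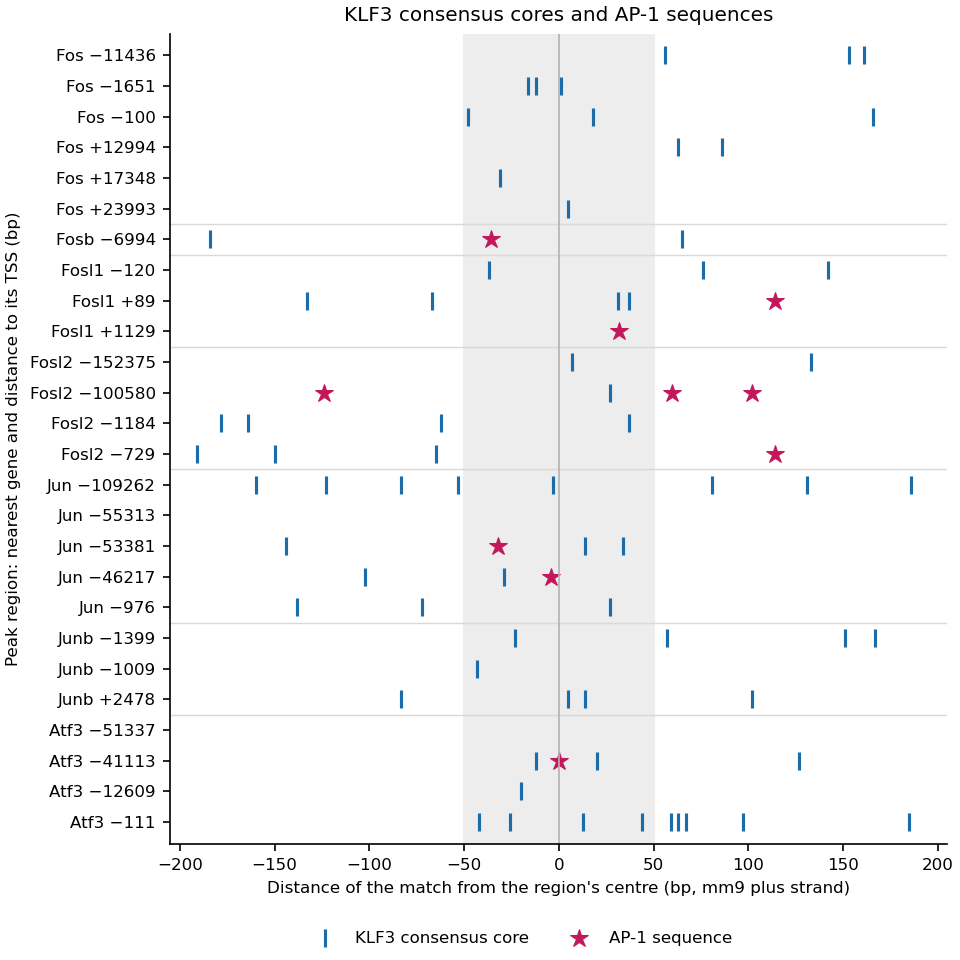
Distance (bp) of consensus cores (ticks) and AP-1 heptamers (stars) from the centre of each of the 26 regions, with the central 100 bp shaded. At Atf3 -41113 the star lies at 0 between ticks at -12 and 20 bp, while Jun -55313 and Atf3 -51337 have no mark.

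The wider pathway was covered by 4 lists of genes, none holding a member. Of 29 partners, which are other basic leucine zipper genes, 18 had 55 regions. The ΔDL height was 2-fold or more below KLF3 in 10 of these and above it by as much in 7, with a median difference of -0.09. The highest KLF3 region of the list was in Atf4, the effector of the integrated stress response, with log2 heights of 10.16, 9.47 and 6.68 for KLF3, ΔDL and DBD. The largest excess of ΔDL, 1.92, lay at -76377 bp of Maf and the largest deficit, -2.02, in Bach1, a repressor of antioxidant genes.

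Of 31 upstream genes, which encode the MAP kinases, the serum response factors and their feedback inhibitors, 23 had 54 regions, 10 lower and 11 higher in ΔDL, with a median of -0.14. The promoter of Dusp1, a phosphatase that switches MAP kinases off, had the highest KLF3 height (9.64, with 9.34 for ΔDL and 5.41 for DBD). Map3k5, a stress-activated kinase of the same cascades, had the largest excess of ΔDL (2.29) and the promoter of Spry4, a feedback inhibitor of growth factor signalling, the largest deficit (-2.07). Among 29 AP-1 target genes, 22 had 47 regions, of which 17 were lower and 1 was higher, with a median of -0.55. A region upstream of the collagen gene Col1a2 was the highest for KLF3 (9.20, with 9.01 for ΔDL), Mmp3, a matrix metalloproteinase gene, had the largest excess (1.23) and the promoter of the growth factor gene Tgfb1 the largest deficit (-2.82).

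Of 17 other immediate early genes, 15 had 59 regions, 15 lower and 10 higher, with a median of -0.35. Cyr61, which encodes a matricellular protein, led for KLF3 at 9.78. The extremes of ΔDL lay in intergenic regions assigned by distance to the orphan nuclear receptor genes Nr4a2 and Nr4a1. The largest excess (2.42) was 401758 bp from the Nr4a2 start, in a region listed for ΔDL alone with a KLF3 height of 4.60. The largest deficit (-3.20) was at -12784 bp of Nr4a1. In all 4 lists the median lay above the -0.65 of the AP-1 factor regions and below the 0.42 of all regions. The split of these counts depended on the scaling. With ΔDL scaled to equal medians in the shared regions, 33 partner regions were at least 2-fold lower and 0 higher, 33 and 1 at the upstream genes, 35 and 0 at the targets, and 42 and 1 at the other immediate early genes. Of all regions, 43% were lower and 0.397% higher under that scaling. The list medians were then -1.15 for the partners, -1.20 for the upstream genes, -1.61 for the targets and -1.41 for the other immediate early genes, against -1.71 for the AP-1 factor regions. Both KLF3 replicates were called at 74.5%, 75.9%, 93.6% and 71.2% of the regions of the lists, in the same order. Among the AP-1 factor regions this share was 92.3%, and among all regions 64.1%. Entry through KLF3 calls favours a lower difference, and its part in the medians was not tested.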

How the data were processed

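Anti-V5 ChIP-seq of 3 constructs, 2 replicates each with paired inputs, was used. The members and gene lists were chosen with earlier results of these data known. Reads of 50 bp were checked by the authors with FastQC 0.10.1, aligned with Bowtie2 2.0.0 (mm9 genome), sorted with SAMtools 0.1.18, and used for peak calling per replicate with HOMER 4.1 at 5-fold enrichment over input and a false discovery rate of 0.001. The heights are log2 values that the authors computed from both replicates combined. The deposited score of a replicate's peak is a signal, the tags in a peak per 100 M tags. The authors also deposited the G+C fraction and the mean PhastCons score of each merged peak.

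Tags behind a height were read back from it and the total in the file header, within 1 tag. A height includes a random part of 1 tag and is rounded, which limits the lowest ones. Tags behind a replicate list came from the step of its scores. A replicate peak belonged to a region when it shared at least 1 bp. Intervals are 95% Clopper-Pearson. Sequences and motifs were read from mm9 (NCBIM37), whose G+C content matched the deposited values, and overlapping genes from GENCODE vM1. All 10 members were described, and from each list the genes with the highest KLF3 region and the largest ΔDL excess and deficit. No test was run, since each region has 1 height per construct. Inputs entered through the peak calling only. The focus ratio column and the scores and heights of the merged lists were not used. The functions were tested on simulated data. Alternatives were another scaling, fold, distance, overlap, motif window and score threshold. Scripts ran under Python 3.11.15 with pysam 0.24.0, scipy 1.17.1, pandas 2.3.3 and numpy 2.4.6.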

Additional observations from a re-analysis of the deposited data

Results flagged for a closer look

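Peaks at Jund and Maff stand outside the table of all peaks, although the replicate lists hold them. At Jund the highest score was 678 in KLF3 replicate 1, 575 in KLF3 replicate 2, 396 in ΔDL replicate 1 and 176 in ΔDL replicate 2, and no DBD peak was called. At Maff it was 133 in KLF3 replicate 2, and no other list had a peak.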

How the results depend on the processing

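Scaling ΔDL to equal medians in the regions listed for all 3 constructs changed the ΔDL counts to 22 lower and 0 higher and the median to -1.71, while every DBD count and median stayed within the set limits. The count of regions with ΔDL at least 2-fold higher, 1, was 0 among regions listed for KLF3, 0 among those with heights from 8 up, 3 at 1.5-fold and 0 at 3-fold. The count with ΔDL lower, 9, was 3 at 3-fold, and it ranged from 8 to 9 when regions were restricted or overlaps counted once. DBD at least 2-fold higher, 0, was 1 at 1.5-fold. The count called in both ΔDL replicates, 8, was 17 without replicate 1 and 9 without replicate 2. In the upper 50% of the lists 1 region was called in both DBD replicates, in place of 2. With either replicate left out, the count was 25 for KLF3, and 2 or 3 for DBD. An overlap of 200 bp could not be applied, since the widest replicate peak spans 142 bp. At single regions the scaling moved 23 ΔDL differences, and 0 DBD differences, by at least 50% of the width of their counting interval. The consensus core, found in 19 regions, was in 23 within 400 bp and in 16 with G or A 3 bases before it, and the AP-1 heptamer, in 6, was in 5 within 100 bp, 8 within 400 bp and 6 with TGACGTCA added. Depth limits low heights, which rest on as few as 8 tags for ΔDL and 1 for DBD. No paired analysis was possible because the heights combine both replicates.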
